A study of Mus musculus with 8 samples.

Results

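Glypicans and syndecans are the 2 families of heparan sulfate proteoglycans that are anchored in the cell membrane. The 10 mouse genes, Gpc1 to Gpc6 and Sdc1 to Sdc4, were found by symbol among the 38553 genes measured by RNA-Seq in dorsal and ventral medial entorhinal cortex (MEC), and 8 of the 10 were abundant enough to be tested, among 13674 genes in all. The families were chosen because Gpc3 and Gpc5 were known to run in opposite directions between dorsal and ventral MEC in these same libraries. Dorsoventral values of the members are therefore given as a description without p-values, and where calls of members are counted, nothing is read from them.

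The tissue was taken from 13 mice of the strain C57BL/6JolaHsd, all males of 8 weeks, with 1 sagittal slice of 400 µm through the right MEC taken from each brain. Dorsal and ventral MEC were dissected from each slice, and tissue was pooled within 4 groups of 3 or 4 mice, which gave 4 dorsal and 4 ventral libraries. Each library therefore averages several mice and all cell types of the dissected piece, so that differences among the libraries of a region are differences among pools. The RNA integrity number was at least 7.1 and at most 8.5, and 120 ng of RNA was amplified for each library.

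Levels are given as FPKM, a count of sequenced fragments scaled to the length of the gene's exons and to the size of the library, so that genes can be compared with each other. Over all genes, 103359486 fragments were assigned in the 8 libraries together. Pairs of dorsal libraries correlated across genes with r between 0.979 and 0.986, pairs of ventral libraries with r between 0.974 and 0.985, and pairs from different regions with r between 0.969 and 0.983. The column headers D1, V1, D2, V2, D3, V3, D4 and V4 give, for 4 of these libraries, a letter that stands for the opposite region. Libraries were placed in a region because the means of D1, V1, D2 and V2 and of D3, V3, D4 and V4 equal the deposited dorsal and ventral means to within 0.1% for 21861 of 21876 genes, whereas the next best of 70 possible assignments matched 1273 genes. The regions thus come from a match of values rather than from a label, and the values obtained with the regions that the headers name are given as well.

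Glypicans are held at the outer leaflet of the membrane by a glycosylphosphatidylinositol anchor, whereas syndecans cross the membrane and have a short cytoplasmic tail that ends in a binding site for PDZ-domain proteins such as syntenin. The heparan sulfate chains on both families bind growth factors, morphogens and guidance molecules and present them to their receptors. In the brain, glypicans made by astrocytes and neurons act as synaptic organizers through receptor protein tyrosine phosphatases and leucine-rich repeat proteins, and syndecans take part in axon guidance, spine formation and glial growth factor signalling.

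The shared end of the syndecan tail shows how alike the 4 syndecans are at the RNA level. The last 60 coding bases of each gene before the stop codon (GENCODE M21, GRCm38) are printed here 5′ to 3′, with the last 12 bases, which encode the PDZ-binding end, in capitals.
Sdc1: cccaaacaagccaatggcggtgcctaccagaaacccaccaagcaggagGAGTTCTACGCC
Sdc2: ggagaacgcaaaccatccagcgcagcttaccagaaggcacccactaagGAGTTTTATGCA
Sdc3: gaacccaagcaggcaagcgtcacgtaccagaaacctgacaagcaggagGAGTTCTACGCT
Sdc4: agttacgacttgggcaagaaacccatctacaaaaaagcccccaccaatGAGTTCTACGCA
Between 9 and 11 of the 12 capital bases were identical in each pair. The 60 bases were compared position by position from the stop codon without gaps, so a shift between tails counts as mismatches. Compared in this way, Sdc1 and Sdc3 shared 37 and Sdc2 and Sdc4 shared 30, while the other pairs shared 21 to 25. Of these 2 closer pairs, Sdc1 was hardly detected in the MEC while Sdc3 was abundant. Sdc2 and Sdc4 were both abundant, with mean FPKM of 12.1 and 25.0.

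The glypicans fall into similar pairs as well. Over their aligned coding bases Gpc4 and Gpc6 were 68.3% identical and Gpc1 and Gpc6 were 63.1% identical. Gpc3 and Gpc5 were 61.8% identical, the highest value that either had with any other glypican, and Gpc2 and Gpc3 had the lowest value at 53.9%. Gpc3 and Gpc5, which differed in opposite directions between the regions, were thus each other's closest relatives by this measure.

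Both pairs of glypican neighbours lie on the same strand of 1 chromosome. Gpc4 (chrX:52053021-52165252) and Gpc3 (chrX:52272426-52613950) lie on the minus strand, 107 kb apart with 0 annotated genes between them. Gpc5 (chr14:115092215-116525179) and Gpc6 (chr14:116925315-117976544) lie on the plus strand, 400 kb apart with 1 gene between them that is not protein-coding. The remaining members lie apart, with Gpc1 at chr1:92831645-92860779, Gpc2 at chr5:138273655-138280005, Sdc1 at chr12:8771323-8793715, Sdc2 at chr15:32920723-33034935, Sdc3 at chr4:130792537-130826319 and Sdc4 at chr2:164424247-164443887.

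Promoters are shown for Gpc3 and Gpc4, which both had higher ventral libraries, and for Gpc5, which had higher dorsal libraries. Each run is the 250 bases before the RefSeq transcription start (GRCm38.p6), 5′ to 3′ on the gene's strand. Each GC box (GGGCGG or CCGCCC, so either strand) is in capitals. For Gpc4 the annotations differ, since GENCODE starts this minus-strand gene at 52165252. By GENCODE the Gpc4 window thus lies inside the gene rather than before it.
Gpc3, minus strand, chrX:52613975-52614224: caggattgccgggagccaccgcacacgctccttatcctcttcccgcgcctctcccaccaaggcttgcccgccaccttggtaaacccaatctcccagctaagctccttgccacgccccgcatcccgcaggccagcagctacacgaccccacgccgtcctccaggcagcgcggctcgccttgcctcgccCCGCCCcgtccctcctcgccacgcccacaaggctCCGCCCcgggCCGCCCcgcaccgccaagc
Gpc4, minus strand, chrX:52164924-52165173: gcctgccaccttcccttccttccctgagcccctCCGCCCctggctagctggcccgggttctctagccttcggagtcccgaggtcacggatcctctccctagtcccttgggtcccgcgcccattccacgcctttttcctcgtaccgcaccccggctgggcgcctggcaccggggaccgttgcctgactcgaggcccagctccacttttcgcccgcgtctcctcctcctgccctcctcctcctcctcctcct
Gpc5, plus strand, chr14:115091965-115092214: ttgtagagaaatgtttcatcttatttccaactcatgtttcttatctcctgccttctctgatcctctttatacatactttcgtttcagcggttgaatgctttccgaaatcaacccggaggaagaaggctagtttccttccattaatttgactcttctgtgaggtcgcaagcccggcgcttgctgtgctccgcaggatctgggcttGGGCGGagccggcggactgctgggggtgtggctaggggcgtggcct
The Gpc3 window held 3 GC boxes and 25 CpG dinucleotides at 71.6% G and C, and the Gpc4 window held 1 GC box and 18 CpG at 68.4%. The Gpc5 window held 1 GC box and 12 CpG at 51.2%, and among the 7 members with a RefSeq promoter (Gpc2, Gpc3, Gpc4, Gpc5, Sdc1, Sdc3 and Sdc4) it was the one with the TATA letters TATAAA or TTTATA. By GENCODE the Sdc4 window also lies inside its gene, and the Gpc2 and Sdc1 windows overlap theirs in part. Of the 32851 promoter windows in the reference, 32.7% held a GC box and 12.4% held the TATA letters, with a median of 6 CpG and 52.4% G and C.

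The order of levels was set by 4 abundant members. Mean FPKM over the 8 libraries was 25.0 for Sdc4, 23.6 for Gpc5, 17.6 for Sdc3 and 12.1 for Sdc2. Then came Gpc6 at 6.19, Gpc4 at 5.01, Gpc1 at 4.19 and Gpc3 at 1.69, and Gpc2 at 0.374 and Sdc1 at 0.0837 fell under the minimum mean of 1 FPKM required for testing. Sdc4 was more abundant than 82.4% of the 14989 genes whose status in the authors' comparison was OK, Gpc5 than 81.1% and Gpc3 than 18.4%. These 14989 genes include genes under the minimum mean of 1 FPKM. The most abundant syndecan and the most abundant glypican were thus on a similar footing, and every other glypican was lower than every syndecan but Sdc1.

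**Figure D1:**
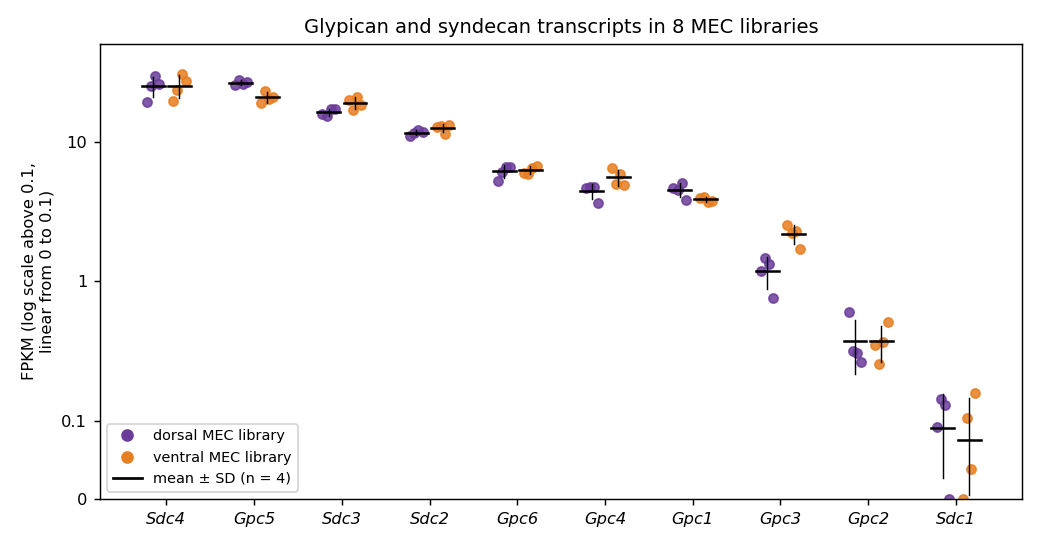
FPKM of the 10 glypican and syndecan genes (horizontal axis, ordered by mean) in the 4 dorsal and 4 ventral MEC libraries, on an axis that is logarithmic above 0.1 and linear below. Points are libraries and black lines are means ± SD; Sdc4 and Gpc5 lie between 18.9 and 30.5, and Gpc3 is the member whose regions lie furthest apart, with dorsal libraries from 0.765 to 1.46 and ventral libraries from 1.71 to 2.53.

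Neighbours in this order were not all separated. Sdc4 exceeded Gpc5 in 5 of 8 libraries, 1 dorsal and 4 ventral. In the ventral library V3 the values were nearly tied, at 23.28 FPKM for Sdc4 and 23.20 for Gpc5. Since Gpc5 was chosen on the contrast of the regions, nothing is read from this split. Gpc5 exceeded Sdc3 in 6 of 8 libraries, Gpc6 exceeded Gpc4 in 7 of 8 and Gpc4 exceeded Gpc1 in 6 of 8, and in each of these pairs the ranges overlapped. Sdc3 over Sdc2, Sdc2 over Gpc6, Gpc1 over Gpc3, Gpc3 over Gpc2 and Gpc2 over Sdc1 held in 8 of 8 libraries with ranges that did not overlap.

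Gpc5, a glypican that is strongly expressed by astrocytes, made up most of the glypican RNA. Its FPKM was 25.5, 27.7, 25.7 and 26.7 in the dorsal libraries headed D1, V1, D2 and V2, and 18.9, 23.2, 20.1 and 20.7 in the ventral libraries headed D3, V3, D4 and V4. Every dorsal library was above every ventral one, and the nearest were the dorsal D1 and the ventral V3. The dorsal mean of 26.4 ± 1.02 (SD, n = 4) was 1.27-fold the ventral mean of 20.7 ± 1.81 (SD, n = 4), a log2 ratio (ventral over dorsal throughout) of -0.35. With the regions named by the headers this log2 ratio was 0.12, and in the 4 libraries whose headers name the assigned region it was -0.22.

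Gpc3, a glypican that binds hedgehog and Wnt ligands and whose loss causes overgrowth, ran the other way at a much lower level. Its FPKM was 1.19, 1.46, 1.34 and 0.765 in the dorsal libraries and 2.53, 2.23, 2.30 and 1.71 in the ventral libraries, in the same order of headers. The regions did not overlap, and the lowest library of each region was the dorsal V2 and the ventral V4. The ventral mean of 2.19 ± 0.348 was 1.84-fold the dorsal mean of 1.19 ± 0.304 (SD, n = 4 each), a log2 ratio of 0.88. These values rest on 457 fragments in all 8 libraries, against 7970 for Gpc5. With the header regions the log2 ratio was -0.26, and in the 4 libraries with matching headers it was 0.64.

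Gpc4, which astrocytes release and which promotes the recruitment of AMPA receptors to synapses, was also higher in the ventral libraries. Its FPKM was 4.68, 4.76, 4.73 and 3.65 in the dorsal libraries and 6.47, 5.005, 5.85 and 4.94 in the ventral ones. The regions did not overlap, but 3 dorsal libraries (D1, V1 and D2) and 2 ventral libraries (V3 and V4) lay between 4.68 and 5.005. The means were 4.46 ± 0.536 and 5.56 ± 0.731 (SD, n = 4 each), a log2 ratio of 0.32. That ratio was 0.24 without the dorsal library V2, 0.08 in the 4 libraries with matching headers and -0.24 with the header regions.

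The other glypicans overlapped between regions. Gpc1, a glypican of neurons and their axons, had 4.64, 4.53, 5.06 and 3.81 FPKM dorsally and 3.97, 4.02, 3.73 and 3.76 ventrally, so that the dorsal V2 library lay within the ventral range. Its means were 4.51 ± 0.519 and 3.87 ± 0.146 (SD, n = 4 each), a log2 ratio of -0.22. Gpc6, another glypican that astrocytes release, ranged from 5.23 to 6.59 FPKM dorsally and from 5.86 to 6.74 ventrally, with means of 6.12 ± 0.641 and 6.26 ± 0.432 and a log2 ratio of 0.03. Gpc2, known from developing neurons and their growing axons, had 0.267 to 0.602 FPKM dorsally and 0.257 to 0.516 ventrally from 177 fragments in all. At this depth it was not tested.

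Shares of the glypican total within each library were computed from the same FPKM values and are given as a description. Summed glypican FPKM was 43.1 ± 1.499 dorsally and 39.0 ± 1.09 ventrally (SD, n = 4 each). Gpc5 took 61.4 ± 2.13% of the dorsal and 53.1 ± 3.26% of the ventral sum. Gpc4 took 10.3 ± 1.09% and 14.3 ± 2.12%, Gpc3 took 2.75 ± 0.635% and 5.63 ± 0.914%, Gpc6 took 14.2 ± 1.48% and 16.1 ± 1.37%, and Gpc1 took 10.5 ± 1.09% and 9.92 ± 0.338%. By these mean shares the ventral total was divided more evenly than the dorsal one. Since Gpc3 and Gpc5 enter the shares, nothing is read from this. Gpc5 made up between 49.6% and 63.9% of the sum in single libraries.

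**Figure D2:**
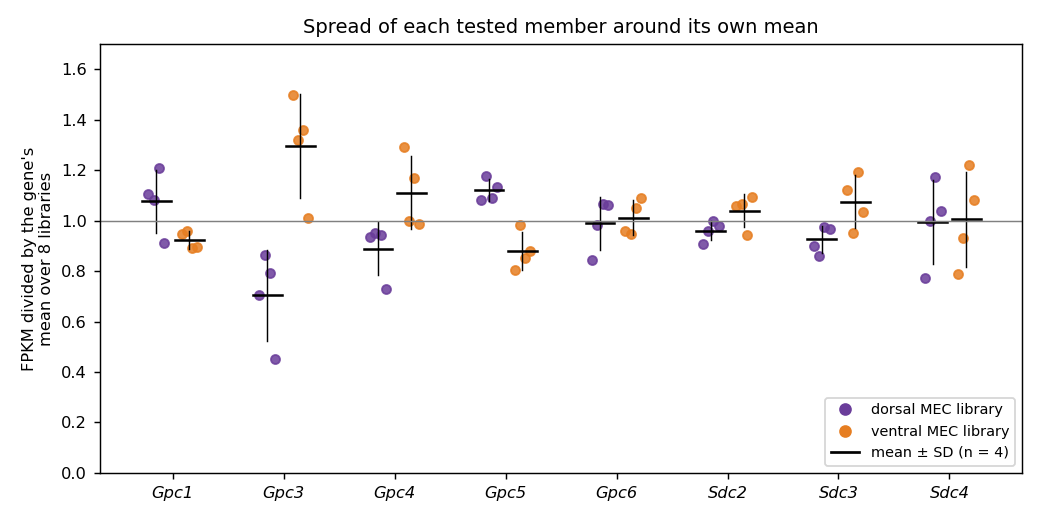
FPKM of the 8 members that were tested, each library divided by the mean of that gene over the 8 libraries, with dorsal and ventral points side by side and means ± SD (n = 4). The dorsal points lie wholly above the ventral ones for Gpc5 and wholly below them for Gpc3 and Gpc4, while Sdc4 shows a wide spread in both regions around the same mean.

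Each of the 3 tested syndecans overlapped between the regions. Sdc3, the syndecan of neurons and axons, had 15.8, 15.2, 17.1 and 17.0 FPKM dorsally and 19.8, 16.7, 20.98 and 18.2 ventrally. The ventral V3 library lay within the dorsal range, and the other 3 ventral libraries lay above every dorsal one. The means were 16.3 ± 0.944 and 18.9 ± 1.85 (SD, n = 4 each), a log2 ratio of 0.22, which was -0.14 with the header regions and 0.08 in the 4 libraries with matching headers.

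Sdc2, which takes part in the maturation of dendritic spines, ranged from 11.0 to 12.04 FPKM dorsally and from 11.4 to 13.2 ventrally. Its means were 11.6 ± 0.471 and 12.6 ± 0.807 (SD, n = 4 each), a log2 ratio of 0.11. The ventral library D4 lay within the dorsal range.

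Sdc4, a syndecan of focal adhesions that is abundant in astrocytes, varied widely within each region and hardly at all between their means. Its FPKM was 19.3, 24.9, 29.3 and 25.9 in the dorsal libraries and 19.7, 23.3, 30.5 and 27.0 in the ventral libraries. The lowest values of the regions were 19.3 and 19.7 and the highest 29.3 and 30.5, so the ranges nearly coincided. The means were 24.9 ± 4.13 and 25.1 ± 4.67 (SD, n = 4 each), a log2 ratio of 0.01, with a coefficient of variation of 16.6% dorsally and 18.6% ventrally against 3.86% and 8.72% for Gpc5 at a similar level. Sdc1, which is known from epithelia and plasma cells, was counted with 26 fragments in all and was listed at 0 in 2 libraries, the dorsal V2 and the ventral D3.

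Summed syndecan FPKM was 52.8 ± 5.21 dorsally and 56.6 ± 5.01 ventrally (SD, n = 4 each). Sdc4 made up 46.8 ± 3.51% of the dorsal and 44.1 ± 4.64% of the ventral sum, and Sdc3 made up 30.95 ± 2.37% and 33.5 ± 3.09%. The share of Sdc3 ranged over single libraries from 29.2% to 37.9% and that of Sdc4 from 37.7% to 50.003%.

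With the header regions, the members whose regions overlapped had log2 ratios of -0.11 (Gpc1), 0.06 (Gpc6), 0.07 (Sdc2), -0.14 (Sdc3) and 0.035 (Sdc4).

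Counted over the members tested, 6 of 8 had the higher mean ventrally and 2 of 8 dorsally, where 48.8% of all genes tested had the higher mean ventrally, and the median log2 ratio was 0.07 against -0.01 for all genes tested. A mean at least 20% higher dorsally was found for 1 member (Gpc5) and for 10.5% of all genes tested, and a mean at least 20% higher ventrally for 2 members (Gpc3 and Gpc4) and for 9.25% of all genes tested. The regions did not overlap for 3 of the 8 members, against 11.1% of all genes tested. A gene was called at a limma adjusted p under 0.05 (Benjamini-Hochberg, on log2(FPKM + 1)) together with a mean at least 1.2-fold higher in 1 region, and by that rule 2.15% of all genes were called higher dorsally and 1.45% higher ventrally. Of the members, 1 (Gpc5) was called dorsally and 0 ventrally. At an unadjusted p under 0.05, limma passed 4 of the 8 members, beside 16% of all genes tested (2191 of 13674). Since the families were chosen on this contrast, nothing is read from these counts.

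The call of Gpc5 was lost in most fits with 1 library fewer. Fewer libraries were not separated from which library was omitted. With 1 library omitted at a time, Gpc5 was called in 1 of 8 fits, that without the ventral library V3, and its log2 ratio lay between -0.41 and -0.31. Gpc3 was likewise called in 1 of 8 fits, that without the ventral library V4, and its ratio lay between 0.72 and 0.997.

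**Figure D3:**
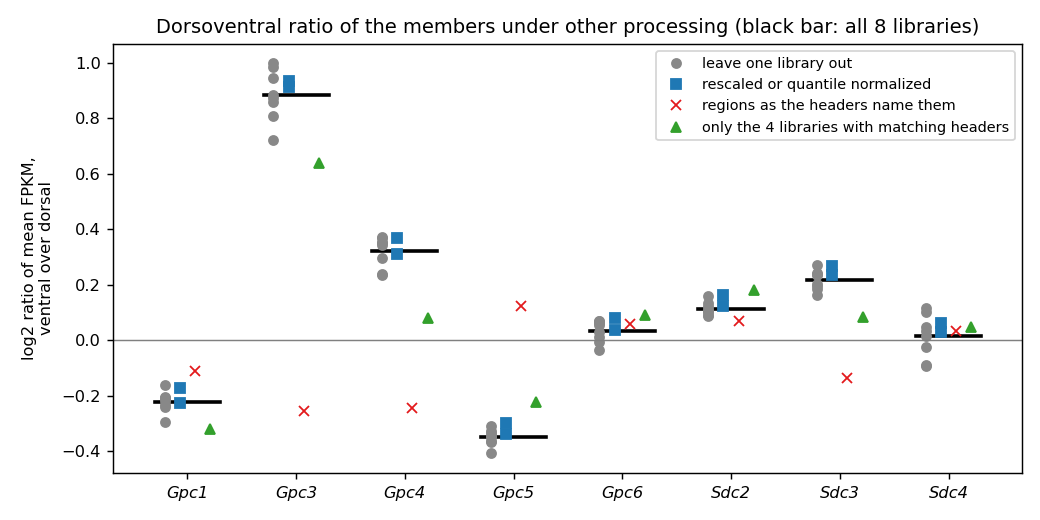
Ventral mean FPKM over dorsal mean FPKM on a log2 axis for the 8 members tested, with all 8 libraries (black bars) and under other processing (symbols). Leaving out 1 library or rescaling kept Gpc3 between 0.72 and 0.997 and Gpc5 between -0.41 and -0.30, whereas the regions named by the headers gave -0.26 for Gpc3 and 0.12 for Gpc5.

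Marker genes of other cells moved with region and are given here beside the members. Summed FPKM of 8 leptomeningeal fibroblast markers was 74.1 to 78.6 in the dorsal and 118 to 130 in the ventral libraries, with 2 of the 6 tested markers called higher ventrally, the direction of Gpc3 and Gpc4. The sum of 8 oligodendrocyte markers was 833 to 1108 dorsally and 458 to 602 ventrally, with 8 of 8 called higher dorsally, the direction of Gpc5. Of all genes tested, 2.15% were called higher dorsally and 1.45% higher ventrally. The sum of 8 astrocyte markers was 880 to 958 dorsally and 827 to 902 ventrally, with 4 markers higher and 4 lower ventrally. By limma 0 of 8 were called and 3 of 8 had an unadjusted p under 0.05 (beside 16% of all genes tested). The regions did not overlap for 4 of the 8 astrocyte markers, beside 11.1% of all genes tested. The part of these marked cells in the members' values was not tested. In bulk tissue fewer cells of a type and less RNA per cell cannot be told apart.

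The remaining lists covered precursors, vessels, microglia, neurons and neighbouring structures. Oligodendrocyte precursor markers summed to 18.5 to 20.7 FPKM dorsally and 20.8 to 21.3 ventrally, microglial markers to 55.4 to 62.2 and 60.1 to 72.8, endothelial markers to 23.6 to 27.8 and 17.2 to 24.8, and mural markers to 49.8 to 66.7 and 50.8 to 63.5. GABAergic neuron markers summed to 251 to 326 FPKM dorsally and 322 to 414 ventrally, with 2 of 8 called higher dorsally, 1 higher ventrally and 5 without overlap. Of all genes tested, 3.6% were called in either direction and 11.1% did not overlap. Glutamatergic neuron markers summed to 606 to 753 and 600 to 774 FPKM, with 1 of 6 called higher dorsally. Only 1 of these 6 had the higher mean ventrally, beside 48.8% of all genes tested. Of the mural markers 1 of 6 was called higher ventrally, and 0 precursor, microglial or endothelial markers were called. Markers of the medial entorhinal cortex itself (Reln, Calb1, Wfs1, Lef1, Cartpt and Cux2) summed to 121 to 140 FPKM dorsally and 103 to 121 ventrally. Of the 5 tested, 1 was called higher dorsally and 1 higher ventrally. The 5 choroid plexus markers summed to at most 1.497 FPKM with Ttr, Folr1 and Clic6 under 0.1, and the 4 dentate gyrus markers to at most 5.37 with Dsp under 0.1.

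The genes that build, modify and read heparan sulfate were then compared between the regions with limma. Of 88 genes in 6 lists, 73 were tested, 4 were called higher dorsally and 1 higher ventrally, which is 5 of 73 beside 3.6% of all genes tested. Their median log2 ratio was 0.06, and 17 of 73 did not overlap between regions beside 11.1% of all genes. Called genes were found among the other proteoglycans, the synthesis enzymes and the sulfotransferases.

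**Figure D4:**
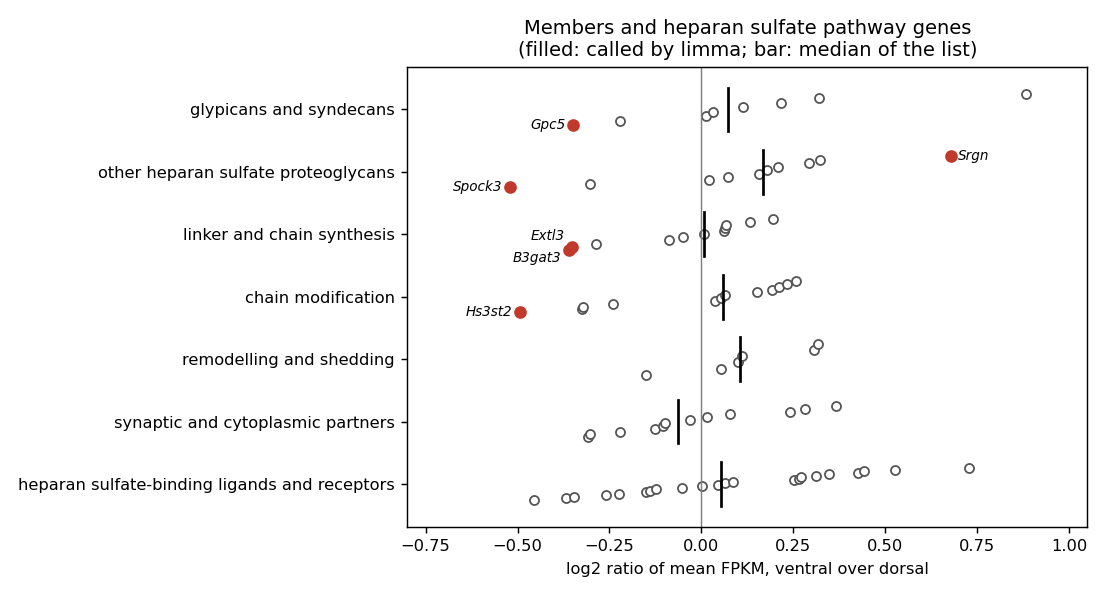
Ventral mean FPKM over dorsal mean FPKM on a log2 axis (horizontal) of each tested glypican and syndecan and of each tested gene in 6 heparan sulfate pathway lists (rows), with called genes filled and named and the median of each list as a bar. List medians lie between -0.06 and 0.17, and called genes were Spock3, Extl3, B3gat3 and Hs3st2 on the dorsal side and Srgn on the ventral side, beside the member Gpc5.

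Other heparan sulfate proteoglycans had 1 gene called in each direction among 10 tested, beside 3.6% of all genes tested called in either direction. Spock3, a testican of the extracellular matrix, had 37.5, 33.5, 32.2 and 33.2 FPKM dorsally and 24.1, 25.6, 19.4 and 26.1 ventrally. It fell ventrally by 0.52 on the log2 scale without overlap (limma adjusted p = 0.0163). Srgn, or serglycin, the granule proteoglycan of blood and immune cells, had 11.4, 8.39, 11.1 and 8.73 FPKM dorsally and 19.0, 13.9, 14.2 and 16.4 ventrally. It rose ventrally by 0.68 on the log2 scale without overlap (limma adjusted p = 0.0204), beside the microglial marker sums given above, and its relation to them was not tested.

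Spock2, another testican and among the most abundant genes of that list, was not called. It had 121 ± 10.2 and 137 ± 12.8 FPKM (SD, n = 4 each; limma adjusted p = 0.353). The list's median log2 ratio was 0.17.

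Of 11 genes of linker and chain synthesis, all tested, 2 were called, both higher dorsally, beside 2.15% of all genes tested. Extl3, which starts the heparan sulfate chain on the linker, had 25.7, 27.4, 28.7 and 27.3 FPKM dorsally and 21.8, 18.8, 24.4 and 20.5 ventrally, and fell by 0.35 on the log2 scale (limma adjusted p = 0.0463). B3gat3, which adds the last sugar of the linker, had 12.7, 12.9, 12.1 and 10.9 FPKM dorsally and 10.4, 8.67, 9.38 and 9.36 ventrally, and fell by 0.36 (limma adjusted p = 0.0458). Neither gene overlapped between regions. Extl2, a related transferase and the most abundant gene of the list, had 37.6 ± 1.74 and 30.8 ± 3.32 FPKM (SD, n = 4 each; limma adjusted p = 0.0958), and the list's median log2 ratio was 0.01.

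Among 12 tested genes of chain modification, 1 was called, beside 3.6% of all genes tested called in either direction. Hs3st2, a neuronal 3-O-sulfotransferase, had 4.56, 4.49, 4.93 and 5.22 FPKM dorsally and 3.27, 2.86, 3.53 and 3.97 ventrally, and fell by 0.49 on the log2 scale without overlap (limma adjusted p = 0.0465). Its exons overlap an annotated gene on the other strand, and without strand their reads cannot be told apart. Hs2st1, the 2-O-sulfotransferase, had 20.1 ± 1.46 and 20.7 ± 1.46 FPKM (limma adjusted p = 0.873), and Hs6st3, a 6-O-sulfotransferase, had 19.7 ± 2.36 and 15.7 ± 1.45 (SD, n = 4 each; limma adjusted p = 0.128).

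**Figure D5:**
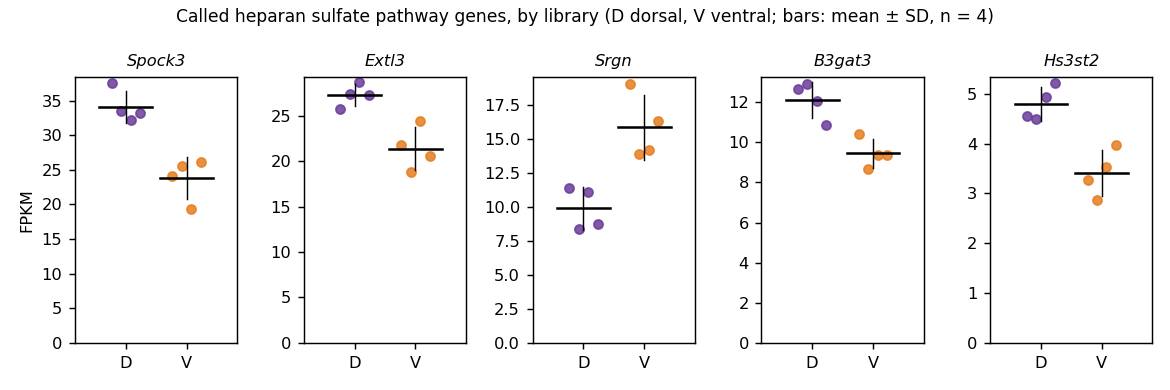
FPKM by library of the 5 called heparan sulfate pathway genes, with dorsal (D) and ventral (V) points, means ± SD (n = 4) and axes that start at 0. Srgn is higher in all 4 ventral libraries, from 13.9 to 19.0 against 8.39 to 11.4 dorsally, and the other 4 genes are higher in all 4 dorsal libraries.

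These 5 calls were not equally stable when single libraries were left out. Spock3 was called in 6 of 8 such fits (not without the dorsal V1 or the ventral D3) and Srgn in 4 of 8 (not without V1 or V2 of the dorsal or D3 or V4 of the ventral libraries). Extl3, B3gat3 and Hs3st2 were each called in 1 of 8, without the ventral D4, the dorsal V2 and the ventral V4 in that order. After rescaling and after quantile normalization Extl3, B3gat3 and Hs3st2 were not called, and without the mean-variance trend Extl3 and B3gat3 were not called. The log2 ratio of each kept its sign in all 8 fits. With the header regions none of the 5 was called, and the log2 ratio was 0.066 for Spock3, -0.23 for Srgn, -0.10 for Extl3, -0.09 for B3gat3 and 0.022 for Hs3st2.

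Enzymes that trim chains and shed proteoglycans had 0 of 6 tested genes called by limma and 1 at an unadjusted p under 0.05 (beside 16% of all genes tested), with a median log2 ratio of 0.11. Sulf2, which removes 6-O-sulfate at the cell surface, had 16.1 ± 2.13 FPKM dorsally and 17.3 ± 2.28 ventrally (limma adjusted p = 0.743). Adam10, a protease that sheds ectodomains, had 15.8 ± 1.03 and 16.4 ± 1.34 FPKM (SD, n = 4 each; limma adjusted p = 0.825).

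Synaptic and cytoplasmic partners had 0 of 12 tested genes called by limma and 4 at an unadjusted p under 0.05 (beside 16% of all genes), with a median log2 ratio of -0.06. Ptprd, a receptor protein tyrosine phosphatase, had 200 ± 17.6 FPKM dorsally and 162 ± 21.6 ventrally (limma adjusted p = 0.142). Sdcbp, or syntenin, which binds the syndecan tail ends printed above, had 74.3 ± 3.04 and 72.8 ± 3.11 FPKM (SD, n = 4 each; limma adjusted p = 0.868).

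Ligands and receptors that bind heparan sulfate had 0 of 22 tested genes called by limma and 8 at an unadjusted p under 0.05 (beside 16% of all genes), with a median log2 ratio of 0.05. Ptn, or pleiotrophin, a growth factor that binds Sdc3, had 150 ± 22.0 FPKM dorsally and 159 ± 20.7 ventrally (limma adjusted p = 0.790). Robo2, a receptor of the Slit guidance proteins, had 42.3 ± 5.86 and 33.3 ± 1.64 FPKM (SD, n = 4 each; limma adjusted p = 0.0926). Some members also share exon positions with annotated genes on the other strand (Gpc1 with Ankmy1, Gpc5 with Gm20713, and Sdc3 with Gm12970 and Gm26716) or on the same strand (Gpc2 with Gm43720), and the counting is not stated to use strand, so their FPKM may include fragments of those genes. The same holds for Sulf2, Ptprd and Sdcbp, which overlap genes on the other strand.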

How the data were processed

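The members, gene lists and tests were chosen with earlier results of these data known. The authors demultiplexed reads with CASAVA 1.8, aligned paired-end fragments with TopHat2 2.0.8 to GRCm38 with Ensembl release 73, and computed the deposited FPKM values with Cuffdiff 2, which scales libraries to each other. Libraries were placed in regions as described above. From the authors' deposited table of estimated counts (fragments that need not be whole), only sums over the 8 libraries were used, so the total of each library is not given, and a count-based test was left out. Columns of the authors' own comparison (fold changes, p-values) were not used, nor were 3 further columns that hold values per sample.

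Genes were tested at a mean of at least 1 FPKM where the authors' status was OK. Regions were compared, 4 libraries each, with limma 3.58.1 (R 4.3.3), which was given log2(FPKM + 1) and allowed the variance to follow the mean; that scale understates changes of low genes, and printed ratios are of mean FPKM. Calls combined a 1.2-fold ratio with an adjusted p under 0.05 (Benjamini-Hochberg). On simulated data with 200 changed genes among 13674, the test recovered 98 of 100 genes changed by 1 and 61 of 100 changed by 0.5 on the log2 scale, with 4.79% of 167 calls false. P-values set the difference between regions against the spread among the pools of a region. Dorsal and ventral libraries came from the same groups of mice, but the fit took all libraries as independent.

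Named genes are all 10 members, each called pathway gene and the 2 most abundant genes of each pathway list; 1 gene that this rule takes is not reported here. Alternatives were the added constant (0.1), the FPKM filter (5, or none), no trend, rescaling, quantile normalization, the headers' regions, the 4 libraries with matching headers, and leaving out each library. Positions and coding sequences are from GENCODE M21 (10 of 10 members) and promoters from RefSeq (7 of 10), with Biopython 1.88. Tables and plots used Python 3.11.15, NumPy 2.4.6, pandas 2.3.3 and matplotlib 3.10.9.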

Additional observations from a re-analysis of the deposited data

Results flagged for a closer look

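A library stood apart from the other 3 of its region in 4 of 50 groups formed by 1 named gene and 1 region, by Dixon's ratio of the gap to the whole range; chance marks about 1 in 20 such groups. Among members, Gpc4 had 3.65 FPKM in the dorsal library V2 against 4.68 to 4.76 in the other dorsal libraries (ratio 0.927), and Gpc2 had 0.602 FPKM in the dorsal library D1 against 0.267 to 0.318 (ratio 0.846). Among pathway genes, Hs2st1 had 22.8 FPKM in the ventral library V4 against 19.7 to 20.1 (ratio 0.863) and Sulf2 had 20.7 FPKM in the ventral library D4 against 15.9 to 16.3 (ratio 0.917).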

How the results depend on the processing

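Of the members, 1 was called higher dorsally and 0 ventrally. The dorsal count was 0 after rescaling, with the header regions and with the 4 libraries whose headers match, and 0 to 1 when 1 library was left out (1 without the ventral library V3). The ventral count was 1 (Gpc3) without the FPKM filter, without the trend and after quantile normalization, and 0 to 1 when 1 library was left out. Of the pathway genes, 4 were called dorsally and 1 ventrally. The dorsal count was 2 without the trend, 1 (Spock3) after quantile normalization and after rescaling, and 0 with the header regions and with the 4 matching libraries, and it was 0 to 2 when 1 library was left out. The ventral count was 0 with the header regions and with the 4 matching libraries, and 0 to 2 when 1 library was left out. The causes were not tested. Fits that leave libraries out also hold fewer libraries, which was not separated from which library was left out.

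The header regions turned the sign of the log2 ratio of Gpc3 (-0.26), Gpc4 (-0.24), Gpc5 (0.12), Sdc3 (-0.14), Srgn (-0.23), Spock3 (0.066) and Hs3st2 (0.022). Over all genes, limma called 294 dorsally and 198 ventrally; with the header regions it called 1 (721 at an unadjusted p under 0.05), and with the 4 matching libraries 0 (1240 at an unadjusted p under 0.05). Leaving out 1 library gave 157 (without the dorsal V1) to 341 (without the ventral V3) dorsal calls and 91 to 191 ventral ones. After rescaling the split was 195 to 201.

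No paired analysis was possible because neither the labels nor the column headers tie a dorsal to a ventral library of the same group of mice. Depth limits Sdc1 (26 fragments), Gpc2 (177) and Gpc3 (457) most.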

Other observations

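Within the dorsal region, low member values gathered in 2 libraries. The library V2 was the lowest of the 4 dorsal libraries for 5 of 10 members (Gpc1, Gpc2, Gpc3, Gpc4 and Sdc1) and the highest for 0. The library D1 was the lowest for 4 (Gpc5, Gpc6, Sdc2 and Sdc4) and the highest for 1 (Gpc2). The same was not counted over all genes. Without V2 the log2 ratio of ventral to dorsal was 0.72 for Gpc3 and 0.24 for Gpc4, against 0.88 and 0.32 with it. In the ventral region no library was the lowest for more than 3 members.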
